A study of Mus musculus with 24 samples.

Results

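The response of thymocytes that lack both Elk-1 and Sap-1 to stimulation of the T cell receptor was read from 6 Affymetrix Mouse430_2 arrays of 3 mice, out of 24 arrays of 12 mice in the series. The cells were thymocytes that carry CD4 and CD8 at once (double-positive, DP), the stage at which thymic selection acts. The 6 arrays were chosen by their labels: 3 carry the genotype Elk/Sap KO with anti-CD3 for 30 min, 3 carry the same genotype without treatment, and the mouse number in the labels ties each stimulated array to the untreated array of the same animal. The genotype is written ElkSapKO, and its arrays are called U1, U2 and U3 (untreated) and S1, S2 and S3 (anti-CD3) after the mouse. The change of a gene is its log2 signal with anti-CD3 minus its log2 signal without, and 18193 genes were tested.

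In all groups the mice were male Black 6J animals aged 8 weeks. DP cells were sorted from the thymus by CD4 and CD8 antibodies, rested for 2 h in medium with serum and spun for 30 min onto plates that either carried anti-CD3 or were bare. The other genotypes were wild type (WT), the single knockout without Sap-1 (SapKO) and that without Elk-1 (ElkKO), each with 3 mice, 3 untreated arrays and 3 arrays with anti-CD3. The labels do not say how the alleles were made, whether the mice were littermates, or how pure the sort was. Since RNA came from whole cell samples, fewer cells of a type and less RNA per cell cannot be told apart. Precision is limited by having 3 arrays a group. The p-values of the main fit rest on the spread between arrays of a group, pooled over all groups. That fit does not link the arrays of a mouse.

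Elk-1 and Sap-1 (genes Elk1 and Elk4) belong to the ternary complex factors, proteins with an ETS domain that sit on DNA beside serum response factor (Srf). Srf binds a motif called the CArG box, the ternary complex factor an ETS motif close by, and phosphorylation by the ERK kinases turns the pair on within minutes. Their classical targets are immediate early genes such as Egr1 and Fos. In DP thymocytes the T cell receptor activates ERK through Ras, and the Egr factors made in response belong to the programme of positive selection. Srf has a separate set of partners, the myocardin-related factors, which serve cytoskeletal genes.

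The promoters of the risen genes that hold a CArG box show what such a site looks like. Of the 60 genes that rose in ElkSapKO, 46 have a promoter window in the RefSeq table used (GRCm38.p6, 250 bases before to 50 bases after a start, 300 bases in all). Of these 46 genes 4 have a window with a CArG box: Dusp5, Egr2, Srf and Zfp36. Risen genes without a window, among them Ier2, Cd69 and Nfkbiz, were not searched. The CArG box was searched on both strands with overlaps allowed, as was the ETS motif CCGGAA. The 150 bases before the start are shown 5′ to 3′ on the strand of the gene, and capitals mark the CArG boxes and the CCGGAA motifs of either strand. They lie at chr19:53528995-53529144 (plus strand, Dusp5), chr10:67537416-67537565 (plus strand, Egr2), chr17:46556163-46556312 (minus strand, Srf) and chr7:28379229-28379378 (minus strand, Zfp36).
Dusp5: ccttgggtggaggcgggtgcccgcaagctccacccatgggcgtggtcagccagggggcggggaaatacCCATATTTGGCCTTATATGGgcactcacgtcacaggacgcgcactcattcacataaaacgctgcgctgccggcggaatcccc
Egr2: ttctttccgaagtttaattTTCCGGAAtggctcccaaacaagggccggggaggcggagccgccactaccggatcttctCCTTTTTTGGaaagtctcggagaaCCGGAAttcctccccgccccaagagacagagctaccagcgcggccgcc
Srf: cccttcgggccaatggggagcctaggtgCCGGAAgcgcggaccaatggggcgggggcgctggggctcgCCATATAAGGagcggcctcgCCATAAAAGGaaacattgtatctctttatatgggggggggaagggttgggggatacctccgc
Zfp36: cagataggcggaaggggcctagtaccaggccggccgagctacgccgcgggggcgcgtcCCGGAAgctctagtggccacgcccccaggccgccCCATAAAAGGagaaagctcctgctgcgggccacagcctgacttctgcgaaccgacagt
Dusp5 and Srf have 2 CArG boxes each, which in Dusp5 follow each other without a gap, and CCGGAA was absent from the window of Dusp5. The CArG box of Egr2 begins 72 bases before the start, 14 bases from the nearest CCGGAA, and 2 overlapping matches of that motif lie further upstream. In Srf 34 bases and in Zfp36 28 bases separate the CArG box from the nearest CCGGAA. Egr2 has 5 listed starts, of which 4 have a window with a CArG box. Counted by gene, with a match in any window of it, 8.70% of the 46 risen genes have a CArG box, against 1.58% of the 14452 tested genes with a window. Counted by window, it is 1.63% of all 32851 windows. The shares for CCGGAA were 28.3% of the risen genes (13 of 46) against 24.1% of the tested genes with a window. All 4 genes were also called without array U2. A match of letters is a description of these windows and not evidence of binding.

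The targeted genes were read first. On its brightest probe set Elk4 lay at 7.19, 6.13 and 7.85 log2 units in untreated ElkSapKO cells of mice 1, 2 and 3 and at 7.44, 7.51 and 7.82 with anti-CD3, whereas the 6 WT arrays lay between 10.25 and 10.82. On this probe set every ElkSapKO array was below every WT array. The other 3 probe sets of Elk4 were dimmer: on one of them U2, at 7.41, was above all WT arrays, which lay between 6.97 and 7.20, and on another the ElkSapKO arrays of 5.07 to 6.61 overlapped the WT arrays of 4.99 to 5.33. Elk1 was at 4.14 to 4.74 in ElkSapKO, below 5.07, the highest level of Xist on these arrays of male mice, which is used here as a background level, so that the loss of Elk1 cannot be read from this probe set. The deleted part of either gene is not stated, and a probe set outside it would check nothing. The third ternary complex factor, Elk3 (Net), had 7.73, 6.10 and 8.28 untreated and 7.94, 7.96 and 8.11 with anti-CD3. Only U2 was low for Elk3, and without it the change was -0.00.

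DP markers were bright on all 6 arrays. Cd8a, a chain of the CD8 coreceptor, lay at 12.11 to 12.63, Cd8b1 at 12.52 to 12.92, Cd4 at 10.45 to 11.42 and Dntt, the nucleotide-adding enzyme of receptor rearrangement, at 12.52 to 12.82. Over all 18193 genes 0.33% rose with anti-CD3, 0.0165% fell and 1441 had an unadjusted p under 0.05 in limma. None of the 7 lists of other cell type markers had a member that passed the test in either direction. At an unadjusted p under 0.05 limma had 2 each among the erythroid, the mature T cell and the stromal markers and 0 in the other 4 lists. Their mean levels on the 6 arrays ranged from 5.21 to 6.00 for the 10 measured B cell markers, 5.70 to 6.08 for the 14 of mature and innate T cells, 5.27 to 5.73 for the 13 of double-negative thymocytes, 4.75 to 5.64 for the 18 of macrophages and dendritic cells, 3.93 to 4.81 for the 10 of granulocytes, 3.82 to 4.80 for the 5 erythroid ones and 4.64 to 5.30 for the 16 of epithelium and stroma. U2 was the highest array of the 6 in the lists of B cells, macrophages and dendritic cells, granulocytes, erythroid cells and stroma. Members at or below the background level on all arrays numbered 3 for B cells, 3 for mature and 2 for double-negative T cells, 9 for macrophages and dendritic cells, 5 for granulocytes, 4 for erythroid cells and 6 for stroma. The B cell marker Cd79a was 6.08 on U2 and 4.12 to 4.60 on the other 5 arrays. Ighm was high on all 6 on the brightest of its 11 probe sets, at 11.28 to 12.37, and WT arrays were at 11.55 to 12.12 there. Its second probe set lay at 9.90 to 10.95 in ElkSapKO and the rest at 3.34 to 6.88. The part of the marker transcripts in the results was not tested.

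Array U2 stands apart. The interquartile range of its log2 deviations from the median of each gene over the arrays was 0.826, against 0.179 to 0.363 on the other 23 arrays. It correlated at 0.948 and 0.952 with the other untreated ElkSapKO arrays, while no correlation within another group was below 0.987. Its signal was compressed: with the genes in 5 equal bins by mean signal, the median difference from the mean of U1 and U3 was 0.29, 0.52 and 0.40 in the 3 dimmest bins and -0.22 and -0.19 in the 2 brightest. For S2 against S1 and S3 these differences were 0.02 to 0.05. U1 and U3 also differed from each other among brighter genes: U1 minus U3 was 0.05 to 0.16 in the 3 dimmest bins and -0.32 and -0.18 in the 2 brightest. The 3′ minus 5′ signal of Actb, a measure of RNA integrity in which higher values mean less 5′ signal, was 0.808 on U2, 1.05 on S2, 0.545 to 0.651 on the other 4 ElkSapKO arrays and 0.151 to 0.359 in WT. All ElkSapKO arrays had dap spike-in signals of 10.05 to 10.70, WT arrays 6.89 to 9.79, and the part of either measure in differences between genotypes was not tested.

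**Figure D1:**
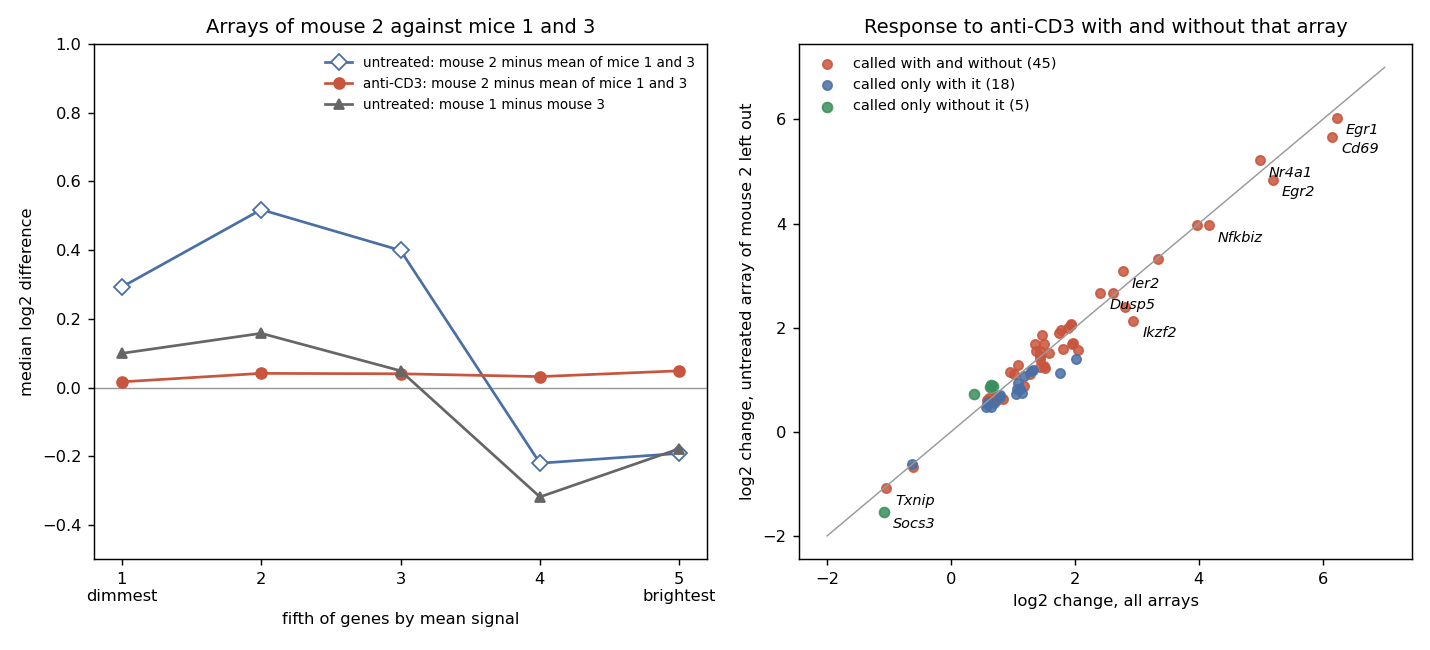
Left, median log2 difference between arrays (y axis) in 5 bins of genes ordered by mean signal (x axis): U2 (open diamonds) is above the mean of U1 and U3 among dim genes, by up to 0.52, and below it among bright ones, S2 (red) stays within 0.05 of S1 and S3, and the grey line is U1 minus U3. Right, log2 change of each gene called with or without that array, with all arrays (x axis) and with the array left out (y axis); 45 genes are called both ways, 18 only with it and 5 only without it, and the line marks equal values.

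Anti-CD3 raised 60 genes in ElkSapKO cells within 30 min and lowered 3 (limma, Benjamini-Hochberg adjusted p under 0.05). The risen genes are 0.33% and the fallen genes 0.0165% of the 18193 tested. Of the rises 46 were at least 2-fold and 14 at least 4-fold. The largest were Egr1 and Egr2, zinc-finger transcription factors, Cd69, the early activation marker of lymphocytes, Nr4a1, an orphan nuclear receptor (Nur77), Nfkbiz, an atypical IkB protein, and Fos, an AP-1 subunit. The fallen genes were Txnip, Rag1 and Smyd1, each with S1 to S3 below U1 to U3, as 1.67% of all genes had. For all 60 risen genes the 3 stimulated arrays lay above the 3 untreated ones and each mouse rose. Of all genes 3.11% had such a separation upwards and 9.81% rose in all 3 mice. Risen and fallen genes were called on these same arrays, so the separation follows in part from the call and is no further support.

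Leaving out U2 gave 47 risen genes (0.258% of those tested) and 3 fallen ones (0.0165%). The calls shared with the full set were 43 rises, 71.7% of the 60 and 91.5% of the 47, and 2 falls, Rag1 and Txnip. Of the 17 rises that lost their call, 16 had U2 below both U1 and U3, and so had 29.5% of all genes and 20 of the 43 rises that kept the call. The 17 are defined by leaving out U2, so a low U2 among them follows in part from that choice. The median change of the 17 was 1.06 with the array and 0.75 without it, and that of the 43 was 1.59 and 1.68. New calls without it were the rises of Gata3, Bcl2, Tgif2 and Filip1l and the fall of Socs3. Other arrays moved the counts too: 77 genes rose and 37 fell without U1, 177 and 39 without U3, and 35 and 1 without S2. With the spread estimated from the 6 ElkSapKO arrays alone, 15 genes were called, all of them rises, and those with a gene name of the usual kind were Egr1, Egr2, Cd69, Nr4a1, Nfkbiz, Nfkbid, Fos, Junb, Ier2, Dusp2, Dusp5, Cd5, Gpr171 and Itprip. With the mouse as a block 59 rose and 3 fell, and 49 of those rises were among the 60.

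**Figure D2:**
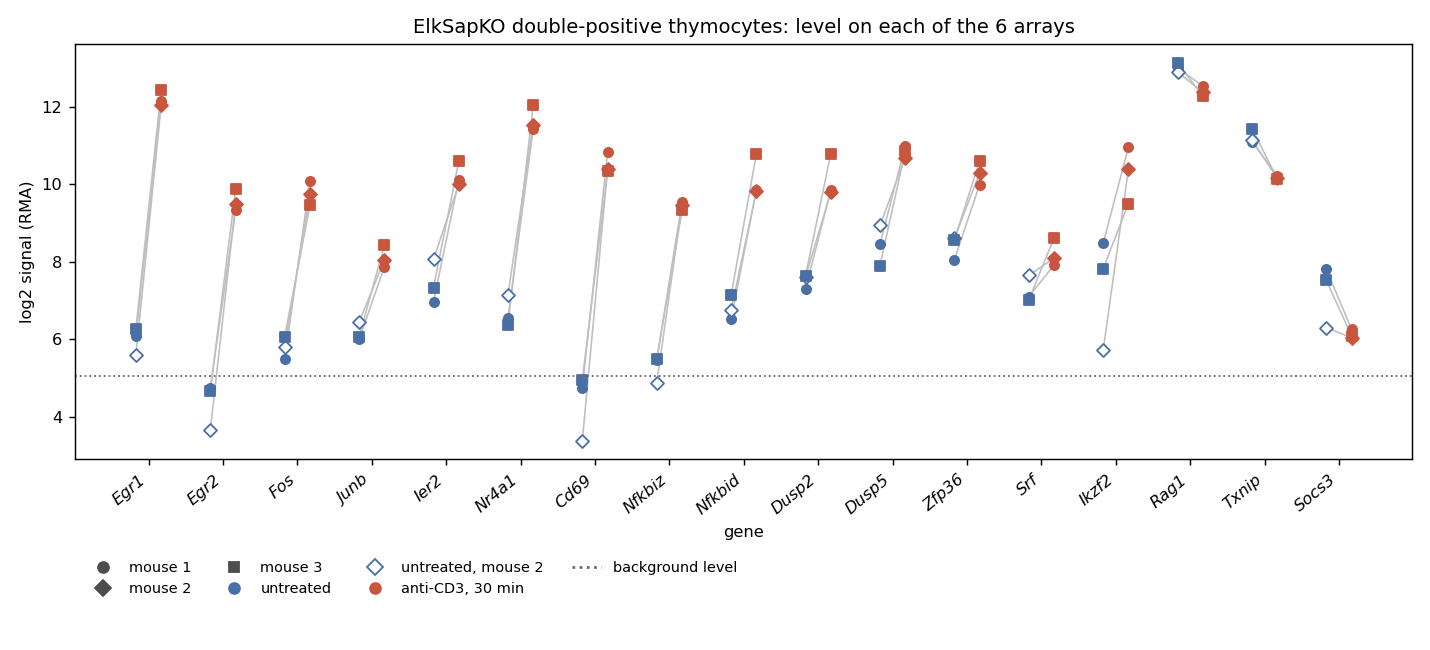
Log2 signal (y axis) of 17 genes (x axis) on the 6 ElkSapKO arrays; blue symbols are untreated, red ones anti-CD3, the symbol shape gives the mouse, grey lines join the arrays of a mouse, open diamonds mark U2 and the dotted line the background level of 5.07. Red symbols are above all blue ones from Egr1 to Ikzf2 and below them for Rag1, Txnip and Socs3, and the open diamond is far below the other untreated arrays for Cd69, Egr2, Ikzf2 and Socs3.

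The Egr factors bind GC-rich sites and are among the best known products of ERK signalling in T cells. Egr1 lay at 6.08, 5.60 and 6.26 in untreated cells of mice 1, 2 and 3 and at 12.15, 12.04 and 12.42 with anti-CD3. The 3 stimulated arrays lay close together and far above the untreated ones, a 74.7-fold rise (log2 change 6.22, 95% interval 5.67 to 6.78, adjusted p = 1.96e-12). Egr2 went from 4.75, 3.66 and 4.68 to 9.32, 9.49 and 9.87. Its untreated arrays were all under the background level, so that the rise is at least 22.5-fold (adjusted p = 1.2e-09). A further Egr2 probe set rose by 5.23.

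Egr3 gave different answers by probe set. The brighter of its 2 probe sets was flat, at 6.08, 6.64 and 5.67 untreated and 6.25, 6.12 and 6.12 with anti-CD3. The second went from 2.80, 2.38 and 3.03 to 7.87, 7.92 and 6.84, with a log2 change of 4.81 (adjusted p = 3.05e-10 over all probe sets), at least 5.56-fold over the background level. All 3 stimulated arrays of the second probe set stood clear of the untreated ones, and mouse 3 was the lowest of them. Of the 12 genes of the Egr, Nab and Id list Egr1 and Egr2 were called by their brightest probe sets. Id3, an inhibitor of E proteins and an Egr target in thymocytes, had a change of 0.56 (adjusted p = 0.538, untreated 9.36 to 10.03, stimulated 10.09 to 10.70), and Nab2, a corepressor of Egr proteins, one of 0.16 (adjusted p = 0.883). U2 was 5.93 for Nab2, against 4.34 in U1 and 4.37 in U3, and without U2 its change was 0.68 (adjusted p = 0.655).

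In the AP-1 family 3 of 15 measured genes rose. AP-1 factors are dimers of Fos, Jun and related proteins. Fos was at 5.51, 5.81 and 6.07 untreated and at 10.08, 9.75 and 9.47 with anti-CD3, a 15.6-fold rise (adjusted p = 0.000331). Junb rose 3.83-fold, from 6.01, 6.45 and 6.07 to 7.86, 8.04 and 8.43. For both genes the groups were clear of each other on every array. Maff, a small Maf protein, rose 1.64-fold, and its adjusted p of 0.00749 became 0.0515 without S2 and 0.0539 without S3. Fosb was not called (change 1.15, adjusted p = 0.375), with stimulated levels of 5.01, 4.81 and 5.46 near the background level.

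The list of 26 TCF-SRF immediate early genes was drawn up around targets of ternary complex factors with Srf. Not every member is an established target. Like the other lists, it was chosen with earlier results of these data known, so its counts and median describe it and test nothing. Of its members 11 rose and 0 fell, while 15 did not pass the test. The median change of the list was 0.69, and 0.54 without U2, against -0.02 and 0.03 over all genes. The risen members were Egr1, Egr2, Fos, Junb, Ier2, Nr4a1, Srf, Dusp1, Dusp5, Zfp36 and Trib1, and all but Dusp1 were also called without that array. Ier2, an immediate early gene, went from 6.97, 8.07 and 7.34 to 10.11, 10.00 and 10.59, a 6.84-fold rise (adjusted p = 3.63e-07). U2 was the highest of the untreated arrays for Ier2, and the stimulated ones were clear of it. Trib1, a pseudokinase that helps to degrade other proteins, rose 2.77-fold, a call kept without U2 (adjusted p = 0.00169), lost without any other single array (up to 0.275) and after a further quantile normalisation (0.0538). Members that did not pass included Mcl1, Pim1, Klf6 and Klf10, with changes of 0.26, -0.32, 0.58 and 0.09.

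Srf itself, the partner of the missing factors, rose 1.94-fold (adjusted p = 0.0203). It lay at 7.10, 7.65 and 7.02 untreated and at 7.92, 8.09 and 8.61 with anti-CD3, with no overlap between the groups. The call was lost with the mouse as a block (adjusted p = 0.0812), after a further quantile normalisation (0.0892), with the mean of both probe sets (0.426) and without U1, S2 or S3 (up to 0.134), and was kept without U2 (0.00197). Of the 24 MRTF-SRF cytoskeletal genes 0 were called by limma, and 0 had an unadjusted p under 0.05, against 1441 of all 18193 genes. Over all genes 0.33% rose and 0.0165% fell, so 0 calls among 24 genes is near that share. The median change of the 24 was -0.09 (0.04 without U2). Actb and Actg1, the cytoplasmic actins, had changes of -0.07 and 0.12.

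**Figure D3:**
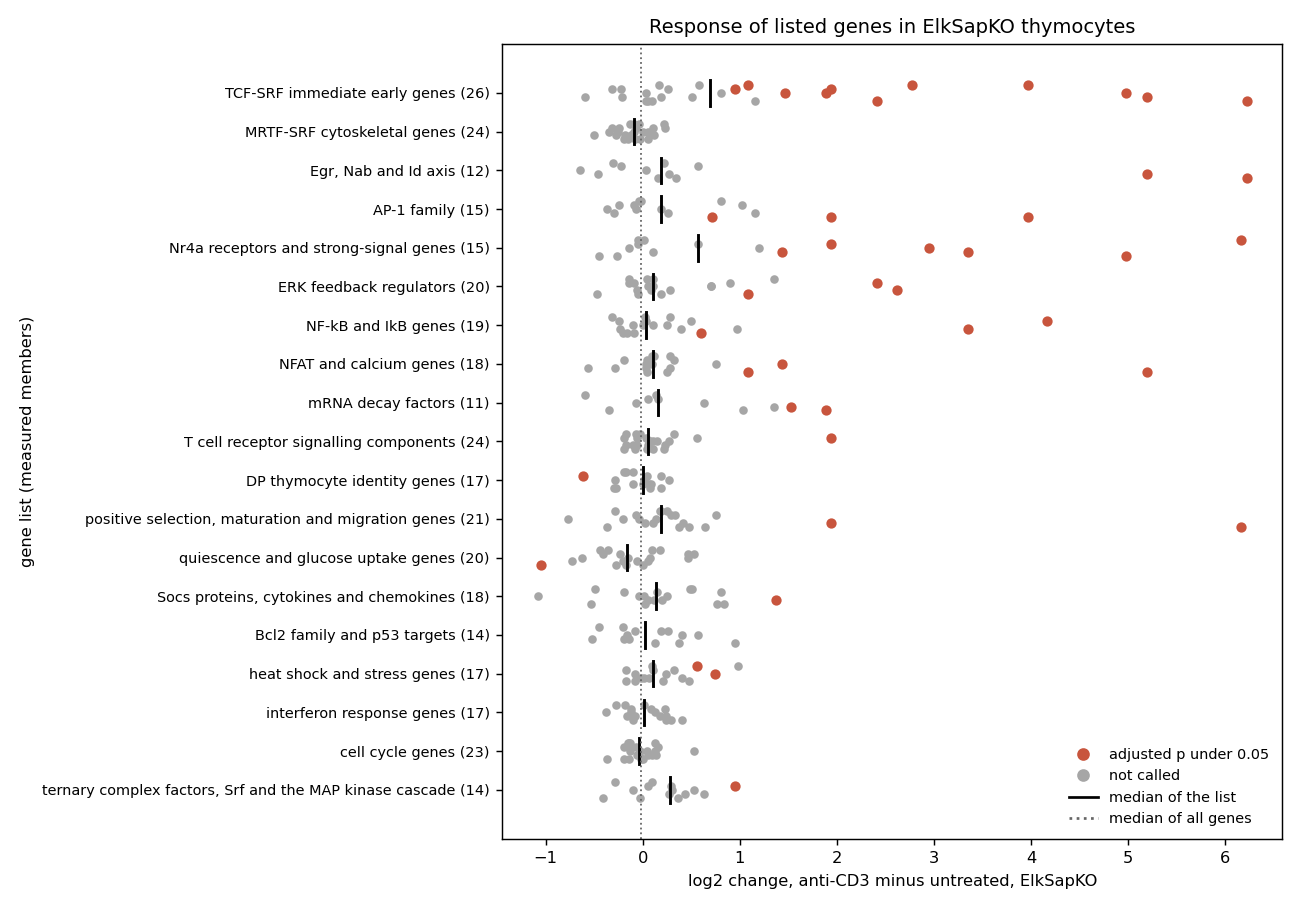
Log2 change in ElkSapKO (x axis) of the measured members of 19 gene lists (y axis, number of members in brackets); red points are called at an adjusted p under 0.05, grey points are not, black bars are list medians and the dotted line is the median of all genes at -0.02. The TCF-SRF list has 11 red points, the Nr4a and strong-signal list 6, and the cytoskeletal, interferon and cell cycle lists have none. Over all genes 0.33% rose and 0.0165% fell, and the lists were chosen with earlier results of these data known.

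Of the Nr4a receptors and other genes that respond to strong receptor signals 6 of 15 measured rose, with a median change of 0.57. Nr4a1 went from 6.54, 7.15 and 6.36 to 11.43, 11.53 and 12.04, a 31.6-fold rise (adjusted p = 4.59e-07), with U2 above U1 and U3 and far below the stimulated arrays. Nr4a2 rose 2.71-fold, from 5.54, 5.73 and 5.20 to 7.35, 7.36 and 6.06. Mouse 3 responded least, and the call (adjusted p = 0.0411) was lost without U1, U3, S1 or S2 (up to 0.392) and with the mean of its 6 probe sets (0.0653). The third receptor, Nr4a3, had a change of 1.20 and was not called (adjusted p = 0.434).

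Cd69 retains thymocytes in tissue by blocking the egress receptor S1pr1. It was at 4.74, 3.39 and 4.95 untreated, under the background level, and at 10.82, 10.40 and 10.34 with anti-CD3. All stimulated arrays were far above all untreated ones, a rise of at least 43.8-fold (adjusted p = 4.01e-07). Cd5, a surface brake on receptor signalling whose level tracks signal strength, rose 3.84-fold, from 5.50, 6.16 and 6.20 to 7.84, 7.77 and 8.07. It was the 1 called gene among 24 components of T cell receptor signalling.

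Ikzf2 encodes the transcription factor Helios, and the size of its rise rested on a single array. Untreated it was 8.47, 5.72 and 7.82, with anti-CD3 10.95, 10.39 and 9.50. The groups did not overlap, but U2 was far below U1 and U3: the 7.70-fold rise (adjusted p = 0.00218) was 4.39-fold without it (0.00197). The other 2 probe sets of Ikzf2 had changes of -0.01 and -0.27, and the call was absent when the probe sets of a gene were averaged (adjusted p = 0.275).

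Among 20 ERK feedback regulators the dual-specificity phosphatases Dusp1, Dusp2 and Dusp5, which take phosphate off MAP kinases, rose. Dusp2 went from 7.31, 7.61 and 7.64 to 9.85, 9.79 and 10.79 (6.15-fold, adjusted p = 3.54e-08) and Dusp5 from 8.45, 8.94 and 7.90 to 10.99, 10.69 and 10.85 (5.32-fold, adjusted p = 1.25e-07). Both sets of arrays were clear of each other, and mouse 3 was highest for stimulated Dusp2. Dusp1 rose 2.12-fold (adjusted p = 0.0248). Its call did not hold without U2 (0.143), S1 (0.0793) or S2 (0.267), with the mouse as a block (0.093) or after a further quantile normalisation (0.0703). Dusp6, the cytoplasmic ERK phosphatase, had a change of 1.35 and was not called (adjusted p = 0.119), with U2 at 5.05 against 6.66 in U1 and 6.62 in U3. The Sprouty protein Spry1 had a change of 0.06.

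In the NF-kB list 3 of 19 measured genes rose. Nfkbiz was at 5.47, 4.88 and 5.49 untreated and 9.54, 9.46 and 9.32 with anti-CD3, a 17.9-fold rise (adjusted p = 1.2e-09), and its other 2 probe sets rose by 4.26 and 1.86. Nfkbid, an IkB protein also called IkBNS, went from 6.51, 6.76 and 7.14 to 9.86, 9.82 and 10.79, a 10.2-fold rise in which mouse 3 ended highest. Neither gene had overlapping groups. Tnfaip3, the deubiquitinase A20, rose 1.52-fold (adjusted p = 0.0244), and this call was lost without any one array other than U3 (up to 0.115) and with the mouse as a block (0.0812). Nfkbia, the classical IkB-alpha, had a change of 0.03.

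mRNA decay factors of the Zfp36 family, which bind AU-rich elements and shorten the life of early transcripts, were also among the rises. Zfp36 went from 8.05, 8.60 and 8.56 to 9.99, 10.29 and 10.60 (3.71-fold, adjusted p = 6.61e-07). Zfp36l1 went from 8.94, 8.07 and 8.95 to 10.19, 10.35 and 9.99 (2.87-fold, adjusted p = 0.000157), and its second probe set rose by 1.44. These were the 2 called genes of 11 measured decay factors. Both had groups that did not overlap.

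Kinases and calcium genes followed. Stk17b, the apoptosis-related kinase Drak2, was at 9.87, 8.48 and 9.87 untreated and at 11.42, 11.33 and 11.60 with anti-CD3 (4.12-fold, adjusted p = 4.73e-05), a separation to which U2, the lowest array, added (2.99-fold without it), and its other 2 probe sets rose by 1.87 and 2.97. Itpkb, a kinase that turns inositol trisphosphate into inositol tetrakisphosphate and is needed for thymocyte selection, rose 3.85-fold, from 8.60, 8.03 and 8.98 to 10.47, 10.25 and 10.72, while its second probe set had a change of -0.17. Orai1, the pore of the store-operated calcium channel, rose 2.12-fold with an adjusted p of 0.0482 that was 0.0966 with the mouse as a block and 0.0537 after a further quantile normalisation, and missed the threshold without any single array other than U2 (up to 0.199). Phf6, a chromatin protein, rose 3.52-fold on its brightest probe set, and the other 2 probe sets had changes of 0.47 and 0.38 that were not called (adjusted p = 0.171 with the mean of the 3) and that were -0.14 and -0.06 without U2. Of the 18 NFAT and calcium genes 3 rose: Egr2, Nr4a2 and Orai1.

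The remaining lists had 2 rises or fewer each. Ccl4, a chemokine (MIP-1 beta), was the 1 called gene of 18 Socs proteins, cytokines and chemokines, with 4.98, 5.41 and 4.75 untreated and 6.12, 6.54 and 6.59 with anti-CD3, at least 2.35-fold over the background level. Hspa5, the chaperone BiP of the endoplasmic reticulum, rose 1.68-fold, a call lost without S2 (adjusted p = 0.0652). Dnajb1, a cochaperone of Hsp70, rose 1.47-fold (adjusted p = 0.0482) and lost its call without any one array other than U1 (up to 0.376), and also with the mouse as a block (0.0623), median centring (0.0973), a further quantile normalisation (0.0714) and the mean of its probe sets (0.051). Interferon response genes (17), cell cycle genes (23), and Bcl2 family members with p53 targets (14) had 0 calls in limma. At an unadjusted p under 0.05 limma had 0, 0 and 5 members, against 1441 of all 18193 genes. Over all genes 0.33% rose and 0.0165% fell, so 0 calls in lists of this size is near that share. The median changes of the lists were 0.01, -0.04 and 0.02. Of 21 genes of positive selection, maturation and migration Cd69 and Cd5 rose, and of 14 genes of the ternary complex factors and the MAP kinase cascade Srf did. Gata3, a T lineage factor, and Bcl2, the survival protein, had changes of 0.64 and 0.37 and were called when U2, high for both, was left out, at 0.90 and 0.73 (adjusted p = 0.0135 and 0.043).

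Of the risen genes in no list, 8 are named here after their values were seen. Gpr171, a G protein coupled receptor, rose 3.01-fold, from 8.85, 8.55 and 8.65 to 10.46, 10.23 and 10.12. Itprip rose 3.42-fold, the clock gene Per1 2.83-fold, Snx18 2.72-fold, Srfbp1 2.71-fold, and the kinase Plk3 2.55-fold, the last with an adjusted p of 0.0588 with the mouse as a block. The call of Snx18 was lost without S1 or S2 (up to 0.0839) and with the mean of its probe sets (0.0568). Cd24a, a surface glycoprotein that DP cells carry at high levels, rose 1.50-fold from 11.89, 11.91 and 11.73 to 12.55, 12.45 and 12.27, and was not called with the mouse as a block (adjusted p = 0.0686) or without S1 or S2 (up to 0.166). Map3k8, the MAP kinase kinase kinase Tpl2, went from 4.01, 3.98 and 4.59 to 5.11, 5.60 and 5.40, and lost its call without U1, U2, S2 or S3 (up to 0.155). The stimulated arrays were above the untreated ones for each of these 8 genes.

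Rag1, which cuts the receptor genes for rearrangement, fell. It was the brightest of the fallen genes, at 13.00, 12.89 and 13.12 untreated and at 12.53, 12.37 and 12.27 with anti-CD3, a log2 change of -0.62 (adjusted p = 0.00463) that missed the threshold with median centring (0.0559). Txnip, an inhibitor of thioredoxin and of glucose uptake, fell from 11.09, 11.14 and 11.43 to 10.22, 10.15 and 10.15 (log2 change -1.05, adjusted p = 0.0157). All 3 mice fell and the groups were apart for both genes, while the call of Txnip was lost without any one stimulated array (up to 0.0865) and with the mean of its probe sets (0.244), and that of Rag1 held without each single array. Smyd1, a methyltransferase known from muscle, changed by -0.63 (adjusted p = 0.0455), and its other 5 probe sets had changes of -0.37 to 0.28. Its call was lost without any one array other than U3 (up to 0.392) and with the mouse as a block (0.114), median centring (0.093), a trended prior (0.102) and the mean of its probe sets (0.714). Rag1 was the 1 called gene of 17 DP identity genes and Txnip that of 20 quiescence and glucose uptake genes.

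Socs3, a brake on cytokine receptors, fell when U2 was left out, and did not pass the test with it. It lay at 7.80, 6.31 and 7.52 untreated and at 6.26, 6.04 and 6.09 with anti-CD3, a change of -1.08 (adjusted p = 0.0959) and of -1.53 without U2 (3.05e-05). All 3 stimulated arrays were below all untreated ones. Ccr7, a homing receptor, and Ddit4, an inhibitor of mTORC1, had changes of -0.77 and -0.73 and were not called.

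The risen genes came from the whole range of resting levels. Over U1 and U3 their mean level ran from 4.08 to 11.81 with a median of 7.09, against a median of 5.50 over all genes. The median SD of the 3 within-mouse changes was 0.40 for the risen genes and 0.33 for all genes. In 37 of the 60 the change was largest in mouse 2, and in 34.0% of all genes. Of the 17 rises lost without U2 16 had it largest in mouse 2, which follows in part from how the 17 are defined. Over the 43 rises that kept the call the median changes in mice 1, 2 and 3 were 1.72, 1.69 and 1.71. Of 27 risen genes with more than 1 probe set, 13 had another probe set that rose in a fit of all 45037 probe sets, and 0 had one that fell. The 60 genes lie on 19 chromosomes.

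The comparison with WT asks what the loss of both factors does to the response. In WT 60 genes rose (0.33%) and 4 fell (0.022%), and 42 rises were shared, 70.0% of each set. Among these, Egr1 rose by 6.80 in WT, Nr4a1 by 5.21 and Fos by 4.48, and Cd69 reached 10.81 from an untreated mean of 4.95, under the background level of 5.07. In the test of the response difference, ElkSapKO minus WT, 0 of 18193 genes were called by limma (0%), with a smallest adjusted p of 0.703 and 982 genes, 5.40%, at an unadjusted p under 0.05. The median standard error of a response difference was 0.24, and that of a response 0.17. A p above the threshold does not show that the responses were alike, and the intervals of single genes were wide: the difference was -0.57 for Egr1 (95% interval -1.35 to 0.21), -0.23 for Nr4a1 (-1.54 to 1.08), -0.06 for Srf (-0.61 to 0.50) and 0.09 for Rag1 (-0.22 to 0.40).

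**Figure D4:**
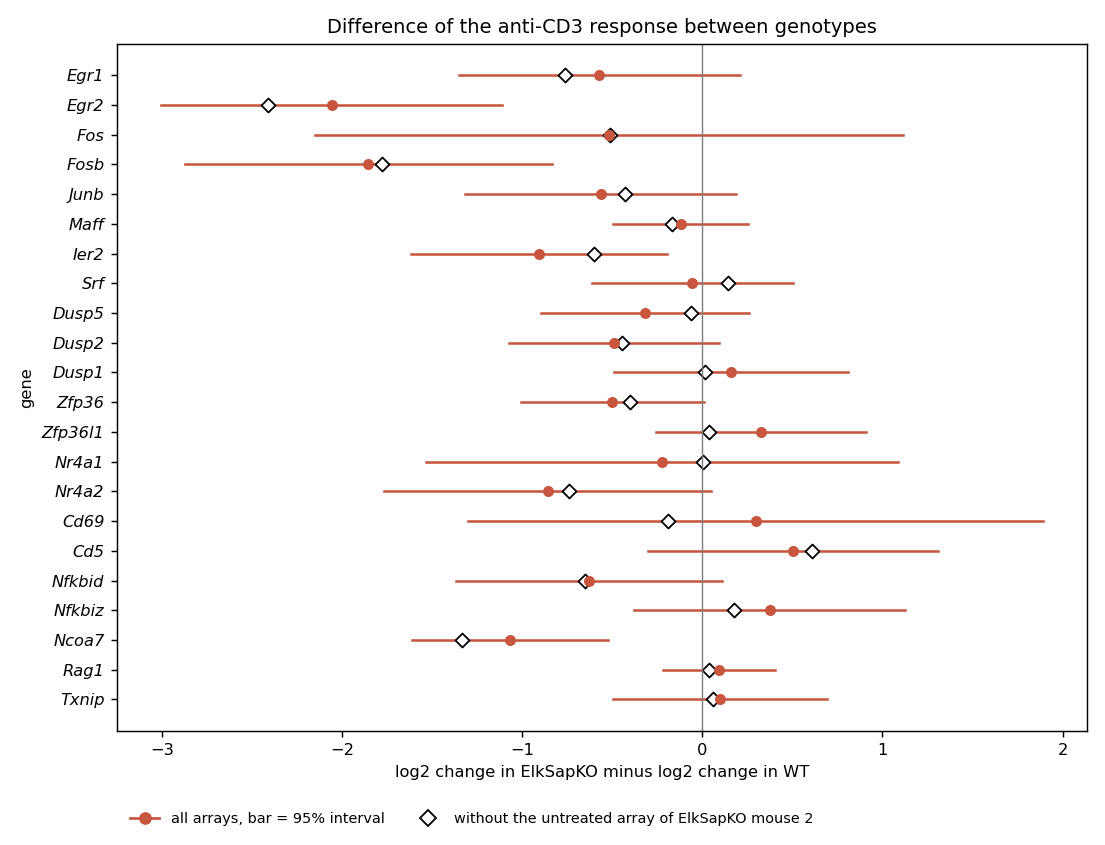
Log2 change in ElkSapKO minus log2 change in WT (x axis) for 22 genes (y axis); red points and bars are the difference and its 95% interval with all arrays, open diamonds the difference without U2. The intervals of Egr2, Fosb, Ier2 and Ncoa7 lie below 0, and the other 18 include 0; no gene was called after adjustment over all genes. The untreated means of Egr2, Fosb and Cd69 are under the background level in both genotypes, so the sizes drawn for them are not firm.

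Egr2, Egr3 and Fosb ended lower in ElkSapKO than in WT. With anti-CD3 Egr2 reached 9.56 ± 0.28 (SD, n = 3) in ElkSapKO and 11.71 ± 0.11 in WT from untreated levels under background in both. The difference of responses as fitted, -2.06 (SE 0.46, adjusted p = 0.703), takes in these levels, so its size is not firm. On the dimmer Egr2 probe set, also under background without treatment, it was -1.15 (SE 0.35). The stimulated arrays of the genotypes did not overlap for Egr2, and its stimulated level on the brighter probe set differed by -2.15 (limma, adjusted p = 0.00109). That of Egr1 differed by -1.15 (0.0138), but Egr1 was already lower without treatment, with means of 5.98 in ElkSapKO and 6.56 in WT. So the -1.15 is not a difference of responses. The share of all genes with a called difference of stimulated level is not given here. The dap and Actb values given above differ between ElkSapKO and WT arrays too. In ElkKO dap was 9.52 to 10.32 and Actb 0.381 to 0.654, with stimulated means of 11.55 for Egr2 and 13.27 for Egr1. In SapKO dap was 6.99 to 9.62 and Actb 0.166 to 0.240, with stimulated means of 10.33 and 12.63. The part of either measure was not tested. Fosb, an AP-1 subunit, reached 5.09 ± 0.33 in ElkSapKO and 7.02 ± 0.50 in WT, and its stimulated level differed by -1.93 (adjusted p = 0.00373). Its untreated means of 3.94 and 4.01 were under background too, and the stimulated ElkSapKO arrays lay near that level, so no size is given for its difference of responses.

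The second probe set of Egr3 was the 1 called probe set when all 45037 probe sets were tested, a setting added after the data were seen. It reached 7.54 ± 0.61 in ElkSapKO and 10.43 ± 0.27 in WT, from levels of 2.74 and 3.10 that are under background. Against the background level the rise was at least 5.56-fold in ElkSapKO and at least 41.0-fold in WT. The response difference as fitted was -2.52 (SE 0.36, adjusted p = 0.0322, and 0.0115 without U2). Against ElkKO it was -2.54 (adjusted p = 0.0284) and against SapKO 0.03 (adjusted p = 0.995). Untreated signal under background enters each of these differences, so their sizes are not firm, whereas the stimulated levels lay above background on every array. The brighter Egr3 probe set, which stands for the gene in the main test, differed by -1.01 from WT (adjusted p = 0.703).

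Ncoa7, a nuclear receptor coactivator with a role against oxidative stress, was not called in ElkSapKO (change 0.22, adjusted p = 0.709). It was at 6.92, 6.34 and 7.36 untreated and at 6.90, 7.27 and 7.09 with anti-CD3, whereas WT went from 8.31 ± 0.19 to 9.59 ± 0.04. On this probe set, the brighter of 2, all ElkSapKO arrays were below all WT arrays. On the dimmer one the ElkSapKO arrays of 3.59 to 6.79 overlapped the WT arrays of 4.31 to 5.55. The response difference there was 0.79, and -0.09 without U2. On the brighter probe set the response difference was -1.07 (SE 0.26, unadjusted p = 0.000533, adjusted p = 0.703). It was -1.33 without U2 (0.0515), and without U2 and S2 it was called, at -1.43 (0.0421). Adam6b differed by -1.60 with an unadjusted p of 0.000595, and the smallest p-values upwards belonged to Olfr558, Cd302 and Pigv, at 0.58, 0.81 and 0.86; none of these was called. Untreated means of Adam6b, Olfr558 and Cd302 were under background in both genotypes.

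**Figure D5:**
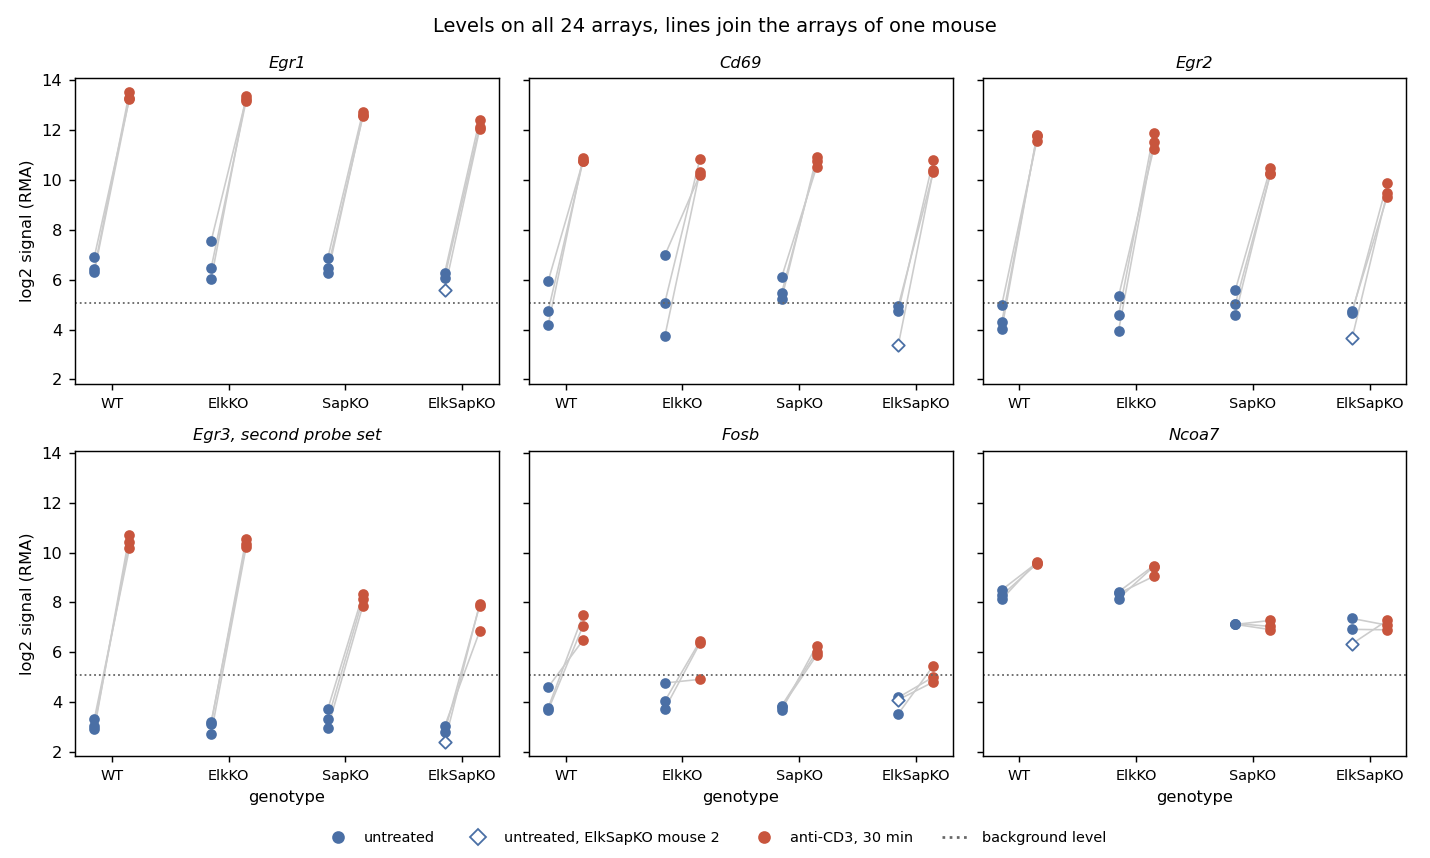
Log2 signal (y axis) of 6 probe sets in the 4 genotypes (x axis) on all 24 arrays; blue points are untreated, red points anti-CD3, lines join the arrays of a mouse, the open diamond is U2 and the dotted line is the background level of 5.07. Stimulated Cd69 lies between 10.47 and 10.81 in the group means. Untreated Egr1 averages 5.98 in ElkSapKO and 6.54 to 6.68 in the other genotypes. Stimulated Egr1 averages 12.63 in SapKO and 12.20 in ElkSapKO, against 13.36 in WT and 13.27 in ElkKO. Egr2, the second Egr3 probe set and the brighter Ncoa7 probe set also end lower in SapKO and ElkSapKO than in WT and ElkKO.

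All 3 comparisons of responses share the ElkSapKO arrays. Against the single knockouts limma also called 0 of 18193 differences (0% each): 361 genes, 1.98%, had an unadjusted p under 0.05 against SapKO, and 625, 3.44%, against ElkKO. In SapKO 62 genes rose (0.341%), of which 44 were shared, 73.3% of the ElkSapKO rises and 71.0% of those of SapKO. In ElkKO 36 rose (0.198%) and 1 fell (0.0055%), and 28 rises were shared, 46.7% and 77.8%. Over all genes the difference was below 0 for 53.5% against SapKO and 56.9% against ElkKO. Egr2 reached 9.56 in ElkSapKO, 10.33 in SapKO, 11.55 in ElkKO and 11.71 in WT, and since its untreated means of 4.36 to 5.07 were at or under background, its changes are not set against each other here. Stimulated levels of the second Egr3 probe set were 8.11 ± 0.23 in SapKO and 10.37 ± 0.17 in ElkKO. For this probe set the highest ElkSapKO array, at 7.92, lay within the SapKO arrays of 7.87 to 8.33. On the brighter Egr2 probe set all stimulated ElkSapKO arrays were below those of SapKO, which averaged 10.33 ± 0.13. That is a difference of stimulated levels and not of responses.

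A group of induced genes chosen on neither ElkSapKO nor WT gives a view of the size of the response. In SapKO and in ElkKO 30 genes rose, of which 26 were called in ElkSapKO and 29 in WT. Their median change in mice 1, 2 and 3 was 1.91, 1.84 and 1.88 in ElkSapKO and 2.00, 2.54 and 2.36 in WT. This gives 1.876 ± 0.034 (SD, n = 3) and 2.298 ± 0.278, and the ElkSapKO value of mouse 2 includes U2. In SapKO and ElkKO, on which the genes were chosen, it was 2.032 ± 0.157 and 2.028 ± 0.360. The mice of ElkKO ranged from 1.67 to 2.39. For 21 of the 30, 70.0%, the change was smaller in ElkSapKO than in WT, and 54.1% of all genes had a difference below 0. Without U2 it was 23 of 30, and the median difference was -0.35 with U2 and -0.19 without it, against -0.03 and 0.02 over all genes. For 27 of the 30 genes the 95% interval of the difference from WT included 0.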

How the data were processed

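RNA of sorted DP thymocytes was labelled with biotin and hybridised to Affymetrix Mouse430_2 arrays, 1 per sample. The authors deposited 1 table of log2 signals made by RMA with the affy package, per the submitters' processing notes (no versions are stated there). RMA corrects background, quantile-normalises the arrays and summarises the probes of a probe set. The table holds 45101 probe sets and no depth, so the number of arrays limits precision. Without 64 control probe sets, 34945 had 1 gene symbol in the platform annotation, 932 had several and 9160 had none. The probe set with the highest mean over all arrays stood for each of 18193 genes, of which 18032 were matched to a current symbol by Entrez identifier. Promoter windows came from RefSeq (GRCm38.p6).

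A mean was fitted for each of the 8 groups of 3 arrays with limma 3.58.1 (R 4.3.3), two-sided, with 16 residual degrees of freedom and no block. The response is the difference of 2 group means, and a difference of responses is their interaction. Benjamini-Hochberg adjustment ran over all genes, and calls have an adjusted p under 0.05. The procedure was tested on simulated data. The background level of 5.07 is the highest Xist signal, and an untreated array below it was raised to it for folds given as "at least".

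The pairing comes from the labels, which give a mouse number for each array. Over all genotypes the deviations of same-numbered arrays from their group means correlated at -0.03 to 0.84, above 0.1 in 10 of 12 pairs. The lowest was mouse 2 of ElkSapKO, whose U2 correlated at 0.26 with S3. In ElkKO mice 1 and 2 correlated at 0.09 and 0.18 with their own numbers and at 0.68 and 0.64 with each other's. The mouse as a block, single arrays or mice left out, array weights, median centring, a further quantile normalisation, the mean of probe sets, the brighter genes alone, a trended prior and a fit of the compared arrays alone were tried as alternatives.

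The members and the 26 gene lists, 384 of whose 413 genes were measured, were chosen with earlier results of these data known. Genes were named where they were among the 20 largest rises or 10 largest falls called and changed alike in 3 mice, among the up to 4 smallest p-values of a list, or among the 3 smallest p-values each way of a difference, and Elk1, Elk3, Elk4 and Srf were always named. Further list members and genes outside this rule were chosen after their values were seen. Symbols of unnamed clones were counted only.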

Additional observations from a re-analysis of the deposited data

Results flagged for a closer look

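For 9 flagged genes every ElkSapKO mouse moved one way with anti-CD3 and every mouse of another genotype the opposite way. This is not a count over all 18193 genes, of which 9.81% rose and 10.7% fell in all 3 ElkSapKO mice. The share of all genes with such opposite moves was not computed. None of these differences of responses was called by limma. Against SapKO the difference was 0.81 for Asap2, -0.65 for Ces1g and 0.57 for Matn1 (adjusted p = 0.917 for each). Against ElkKO it was -0.71 for Col1a2, -0.25 for Elane, -0.84 for Ifnb1, -1.01 for Krt14 and 0.30 for Ptprc (adjusted p = 0.808 for each). Against WT it was 0.78 for Ms4a1 (adjusted p = 0.703). Ptprc, the common leukocyte phosphatase CD45, was bright at 12.5 untreated and 12.8 with anti-CD3 in the ElkSapKO means, whereas the other 8 had means of 5.04 or less in both states, under the background level of 5.07. For Krt14, a keratin, the change in mouse 2 was -1.49, against -0.34 in mouse 1 and -0.33 in mouse 3, and without array U2 the difference from ElkKO was -0.48. The difference of Ptprc without U2 was 0.12.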

How the results depend on the processing

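The 63 calls of the response, 60 rises and 3 falls, became 36 to 216 when single arrays were left out and 41 without both arrays of mouse 2. The fit of the 6 compared arrays alone gave 15 calls, and 7 with the mouse as a replicate block. With all groups in the fit the block gave 62 calls, of which 51 were among the 63, and the calls of named genes that it ended are given beside them. Array weights, which gave U2 a weight of 0.069, gave 696 calls, of which 61 were among the 63. Of the alternatives chosen after seeing the data, array weights without U2 gave 36 calls and all 45037 probe sets 116. For the difference from WT, 1 gene was called without both arrays of mouse 2 (Ncoa7) and 1 with the mean of probe sets (Egr3), and 1 probe set with all probe sets tested (Egr3). Leaving out single arrays gave 0 calls there. For the difference from SapKO, array weights gave 3 calls. For the difference from ElkKO, array weights gave 8 calls, the mean of probe sets 1 (Egr3), all probe sets 1 (Egr3) and single arrays left out 0 to 1, which was Clcn1 without U3. Directions were followed for named genes only, 34 of them called in the response, and for 9 differences from WT. None of their called values was reversed in these runs. Directions of the other called genes were not followed. The cause of the shifts in the counts was not tested. A further limit is the signal of the second Egr3 probe set, Cd69, Egr2 and Fosb without treatment, which averaged under the background level in ElkSapKO and WT, so that only lower bounds of their folds can be given.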

Other observations

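Probe sets of 1 gene did not always move alike in ElkSapKO. Of the 6 probe sets of Nr4a2, the changes were 1.44 for the brightest, 1.94 and 2.11 for a pair that was called among all probe sets (adjusted p = 0.00602 and 0.0229), and 0.38, -0.24 and -0.22 for the other 3. All 3 probe sets of Nfkbiz and all 3 of Stk17b rose. For Socs3 the other 2 probe sets had changes of -0.76 and -0.41, and of -0.30 and -0.86 without U2, and were not called. The second probe set of Srf changed by 0.25, with U2 at 7.40 against 6.13 in U1 and 6.09 in U3.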
